A study of Mus musculus with 7 samples.

Results

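The Myc, Max and Mxd network is a small family of transcription factors, and 7 of its genes were described here out of 28719 genes listed in any of the count files: Myc, Max, Mxd1, Mxd3, Mxd4, Mxi1 and Mnt. The genes were taken by name, with earlier results of these data known. Of the 7, 5 had a row in all 7 libraries. Myc and Mxd3 had none in blood of run 1, whose table held only genes with at least 1 count, so that both were read as 0 there.

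Max is the shared partner of the network and binds DNA as a dimer with each of the others. Myc with Max turns on genes of growth and division, among them genes of ribosome assembly and of nucleotide and protein synthesis, and the Myc protein and its RNA are short-lived. Mxd1, Mxd3, Mxd4, Mxi1 (also called Mxd2) and Mnt pair with Max at the same DNA motif, the E-box, and bring in the Sin3 corepressor with its histone deacetylases. Mxd1 is known from myeloid cells that stop dividing and differentiate, while Mxd3 is known from cells in S phase.

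Neutrophils had been sorted as live CD11b+ Ly6G+ cells from male C57BL/6J mice, and their RNA was read in droplets by 10X Genomics 3′ kits, in which a unique molecular identifier (UMI) stands for 1 captured transcript whatever its length. Healthy, untreated blood, bone marrow and spleen gave 1 library each in 2 runs, from 3 pooled mice per library, aged 6 weeks in run 1 and 8 weeks in run 2, so that age, run and release of the counting software cannot be told apart. A further library, on a later kit, held 5 conditions told apart by hashtag antibodies, each of 3 pooled mice of 8 weeks: healthy blood; blood and joint lavage of mice given 150 μl of serum from arthritic K/BxN mice on days 0 and 2 and killed on day 7; and lung or peritoneal lavage 3 hours after 25 ng of IL-1β into the nose or the peritoneum. A pool of 3 mice is the replicate, so that a healthy tissue has n = 2 and each inflamed condition n = 1, with no test between conditions. Sums over cells are compared throughout, in which fewer cells of a type and less RNA per cell cannot be told apart.

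Cells in which S100a8 and S100a9 together made up at least 3% of UMIs were kept from healthy tissues. This kept 1306 and 3672 cells of blood (runs 1 and 2), 1206 and 3426 of bone marrow and 1135 and 2010 of spleen, 12755 in all. The share kept was 46.2% in spleen of run 2 and 78.9% to 94.9% in the other libraries, and kept cells of a library summed to between 1360064 and 9104133 UMIs. All 15 neutrophil markers on a fixed list had UMIs in every library, while the NK-cell list summed to at most 33.7 CPM (UMIs per 1000000 UMIs of the library). The 8 B-cell markers were lowest in bone marrow of run 1 at 4.47 CPM and highest in spleen of run 2 at 903 CPM, and the 9 T-cell markers reached 213 CPM in that spleen library. Between 0 and 36 cell barcodes were shared by any pair of libraries. Spleen of run 1 stood apart from spleen of run 2: 477 of its 1135 cells had Camp and Ngp, the genes of specific granules made in the marrow, at 3% of UMIs or more, against 62 of 2010 cells.

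The 7 genes lie on 7 chromosomes (GENCODE vM21 on GRCm38, the assembly also called mm10): Myc at chr15:61985391-61990374, Max at chr12:76937269-76962201, Mxd1 at chr6:86647042-86669161, Mxd3 at chr13:55325168-55329823, Mxd4 at chr5:34173883-34187720, Mxi1 at chr19:53310518-53375810 and Mnt at chr11:74830920-74845725. Because the proteins of the network bind the E-box CACGTG, which reads the same on both strands, the promoters of the members were searched for it over 250 bases before to 50 bases after each RefSeq start (GRCm38.p6). The table held 8 promoters of 6 of the 7 genes, 3 of them of Mxi1, and 3 of the 8 held the motif, beside 7.15% of all 32851 promoters. The 3 sites are shown with 10 bases on either side, on the strand of the gene, with the motif in capitals:
Max E-box, minus strand, chr12:76962236-76962261, beginning 3 bases before the start and running across it: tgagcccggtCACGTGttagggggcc
Mnt E-box, plus strand, chr11:74830791-74830816, beginning 123 bases before the start: ccacccaagcCACGTGtgcgcgcgcg
Mxd4 E-box, minus strand, chr5:34187914-34187939, beginning 219 bases before the start: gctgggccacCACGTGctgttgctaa
The windows of Mxd1, Mxd3 and Mxi1 did not hold these letters. A match is a description of the sequence, and binding was not measured in these libraries.

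Mxd1 and Max carried most of the network's transcripts in the 6 libraries of healthy tissue, and Myc was close to absent. In these 6 the 7 genes summed to between 549 CPM in bone marrow of run 1 and 1163 CPM in spleen of run 2. Mxd1 made up 42.6% to 77.7% of the network's UMIs and Max 14.0% to 39.4%, while Myc stayed below 1%. In each of the 6 the order was Mxd1, Max, Mxi1 and Mxd4 from the top, with Mnt, Mxd3 and Myc below them, and Mxd3 lay above Mnt in bone marrow and in spleen of run 1. Healthy blood of the inflammation library, on another kit, summed to 1635 CPM, with Mxi1 at 166 CPM above Max at 117 CPM. Mnt and Mxd4 in blood of run 2 (17.8 and 20.4 CPM) and Mnt and Mxd3 in spleen of run 1 (7.44 and 7.81 CPM) were neighbours within counting error. The intervals of Mxd1 and Max also overlapped in bone marrow of run 1 (234 and 216 CPM). So did those of Mxd4 and Mnt in spleen of run 2 (27.6 and 19.4 CPM).

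Myc was at or near the limit of detection in kept cells of every tissue. Blood held 0 and 3 Myc UMIs in runs 1 and 2 (0 and 0.862 CPM), bone marrow 14 and 9 (3.30 and 0.989 CPM) and spleen 1 and 10 (0.372 and 5.11 CPM). A count of 0 in blood of run 1 allows up to 3 counts, or 2.21 CPM, by counting error alone. Run 1 was the higher in marrow and run 2 in spleen. Both marrow libraries lay above both blood libraries, but with the runs summed the marrow to blood ratio was 2.78 (exact 95% interval 0.840 to 14.5) on 23 and 3 UMIs. Over the 6 libraries 37 Myc UMIs came from 27 of 12755 kept cells, and 10 of these cells had S100a8 and S100a9 below 7% of UMIs, near the limit for keeping a cell. In marrow of run 1 the 14 UMIs came from 6 cells with a median of 12190 UMIs, against 2698.5 over all kept cells there, and the part of doublets was not tested. Summed over runs, the spleen to blood ratio of Myc was 3.82 (exact 95% interval 1.01 to 21.3) on 11 and 3 UMIs.

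Max, the obligate partner, varied little between libraries. It stood at 184 and 159 CPM in blood, 216 and 220 CPM in bone marrow and 195 and 168 CPM in spleen (mean ± SD, n = 2: 172 ± 17.2, 218 ± 2.57 and 182 ± 19.0). Both marrow libraries were above both blood and both spleen libraries, and blood and spleen overlapped.

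Mxd1 was lowest in bone marrow within each run. Its level was 451 and 885 CPM in blood, 234 and 431 CPM in bone marrow and 274 and 863 CPM in spleen. Run 2 was above run 1 by 1.96 times in blood, 1.84 times in bone marrow and 3.15 times in spleen (exact 95% intervals 1.80 to 2.14, 1.72 to 1.98 and 2.88 to 3.43). Of all genes with 20 UMIs or more over both runs, 12.4%, 8.67% and 28.8% differed by 2-fold or more between runs in blood, marrow and spleen. Mxd1 itself was past 2-fold in spleen alone. Both blood libraries lay above both marrow libraries, the closest pair being 451 and 431 CPM, and spleen overlapped with both tissues.

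Mnt, a repressor that many cells hold at a steady level, was low everywhere and lowest in marrow. It gave 22.8 and 17.8 CPM in blood (31 and 62 UMIs), 6.12 and 5.16 CPM in bone marrow (26 and 47 UMIs) and 7.44 and 19.4 CPM in spleen (20 and 38 UMIs). Both blood libraries lay above both marrow libraries, and both spleen libraries also lay above both marrow libraries, 1 of them between the blood libraries and 1 below.

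Mxi1 and Mxd4 were lowest in bone marrow in both runs, by small margins, and blood and spleen changed places between runs. Mxi1 was at 96.3 and 55.4 CPM in blood, 50.6 and 45.4 CPM in bone marrow and 56.2 and 74.1 CPM in spleen. Mxd4 was at 45.6 and 20.4 CPM in blood, 25.7 and 19.9 CPM in bone marrow and 26.8 and 27.6 CPM in spleen. Both genes were highest in blood in run 1 and highest in spleen in run 2.

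Mxd3 was found in marrow and spleen and hardly in blood. Bone marrow held 56 and 85 UMIs (13.2 and 9.34 CPM), spleen 21 and 11 (7.81 and 5.62 CPM) and blood 0 and 2 (0 and 0.575 CPM). The tissues did not overlap. With the runs summed, the marrow to blood ratio was 25.6 (exact 95% interval 6.95 to 213) on 141 and 2 UMIs, and the spleen to blood ratio was 16.7 (4.26 to 144) on 32 and 2 UMIs.

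**Figure D1:**
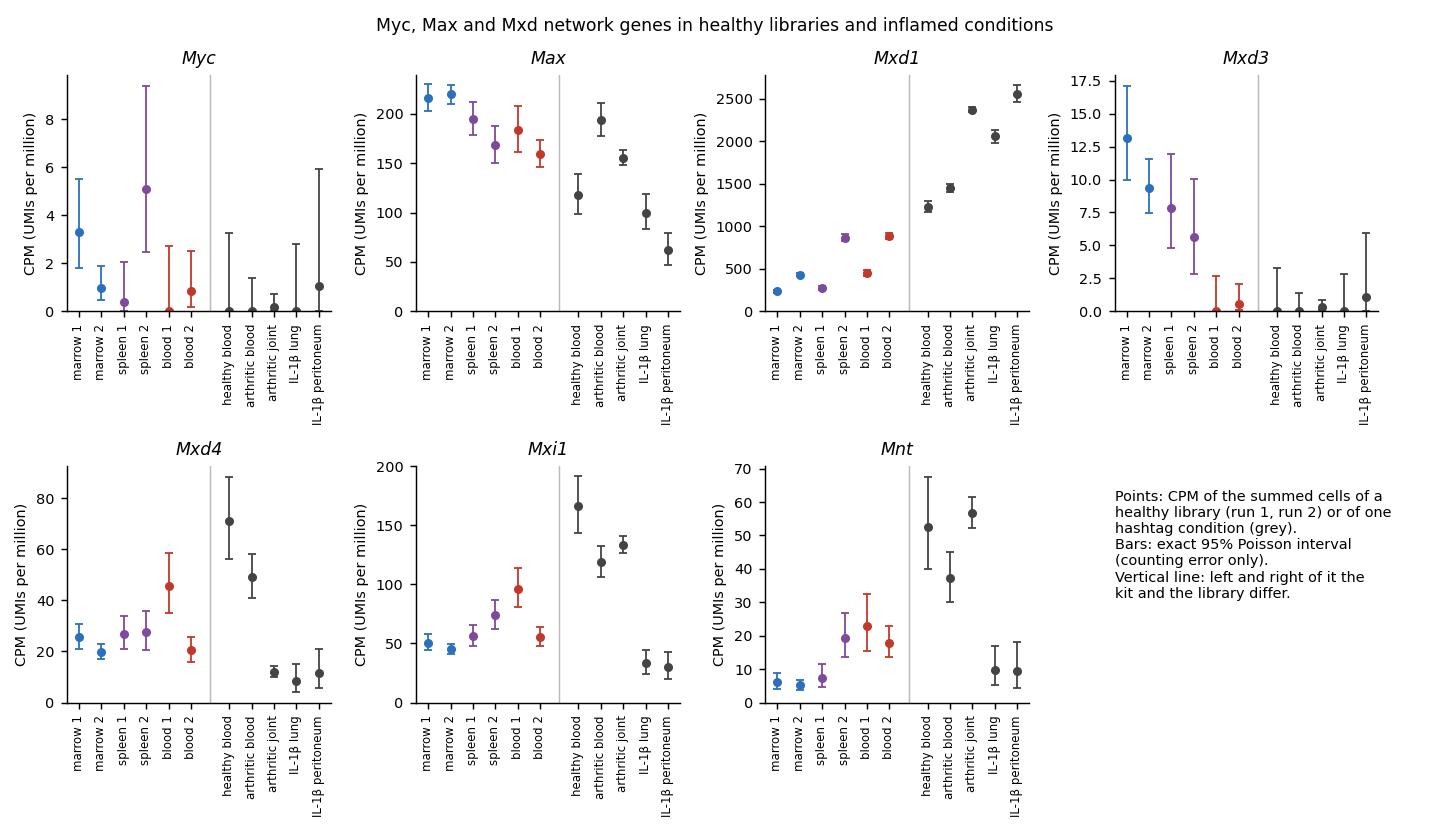
CPM of each of the 7 genes (vertical axis, from 0) in the 6 healthy libraries (bone marrow blue, spleen purple, blood red; runs 1 and 2) and in the 5 conditions of the inflammation library (grey), with exact 95% Poisson intervals that cover counting error only. Mxd1 was the highest member throughout and reached 2557 CPM in IL-1β peritoneum, while Myc never passed 5.11 CPM.

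The Mxd3 transcripts lay mostly in cells that also held transcripts of cycling genes. Cells were set apart when they held a UMI of Mki67, Top2a, Nusap1 or Birc5, genes of S phase to mitosis. Such cells made up 123 of 1206 and 277 of 3426 kept cells in marrow, and held 23.3% and 19.8% of its UMIs. In blood they were 0.689% and 0.327% of kept cells, beside 10.2% and 8.09% in marrow. Median depths over all kept cells were 809.5 and 826 UMIs in blood and 2698.5 and 2133.5 in marrow. A single such UMI can be free RNA, and the class is named by its UMIs. In marrow these cells held 54 of 56 and 81 of 85 Mxd3 UMIs. All 54 and 80 of the 81 were in the 81 and 198 cells with 2 or more cycling-gene UMIs, at 66.9 and 49.6 CPM, a split chosen after seeing the data. In marrow Mxd3 was at 54.7 and 44.8 CPM in these cells and at 0.614 and 0.548 CPM in the others, a ratio of 89.1 (exact 95% interval 23.5 to 755) in run 1 and of 81.8 (30.7 to 307) in run 2. In spleen 16 of 21 and 11 of 11 Mxd3 UMIs lay in the 40 and 24 such cells, and in blood of run 2 both UMIs did. Cells with a cycling-gene UMI are also deeper (medians of 7948 and 7082 UMIs in marrow, against 2488 and 2062 in the others), and the part of depth in these ratios was not tested. The share of Mxd3 transcripts in them over all libraries was 93.7%, beside 14.0% of the UMIs of all genes.

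Max and Mxd1 were lower per UMI in cells with a cycling-gene UMI in marrow and spleen. Max in marrow was at 138 and 112 CPM in these cells and 240 and 246 CPM in the rest, a ratio of 0.574 (0.475 to 0.689) and 0.456 (0.392 to 0.528). The Mxd1 ratio in marrow was 0.341 (0.272 to 0.422) and 0.257 (0.225 to 0.294), and in spleen 0.393 (0.248 to 0.595) and 0.140 (0.0796 to 0.227). Mxd4 in marrow was at 0.527 (0.284 to 0.914) and 0.588 (0.362 to 0.914). For Mxi1 the marrow ratios were 1.03 (0.734 to 1.41) and 0.824 (0.628 to 1.07) and for Mnt 1.22 (0.432 to 3.02) and 0.376 (0.0980 to 1.03), so that neither was separated from 1. Over all libraries they held 3.49% of Mxd1 UMIs, 5.36% of Mnt, 7.83% of Mxd4 and 11.1% of Mxi1, and these pooled shares also depend on how much of a gene came from blood, which had few such cells. In spleen the Max ratio was 0.510 (0.313 to 0.788) and 0.410 (0.186 to 0.789). Mxd3 and Myc were the members above the 14.0% of all UMIs that these cells held, Myc with 15 of 37 UMIs (40.5%). For Myc, 12 of those 15 came from marrow of run 1, with a ratio of 19.8 (4.41 to 182), and in marrow of run 2 it was 2 of 9 UMIs, with a ratio of 1.15 (0.117 to 6.06).

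**Figure D2:**
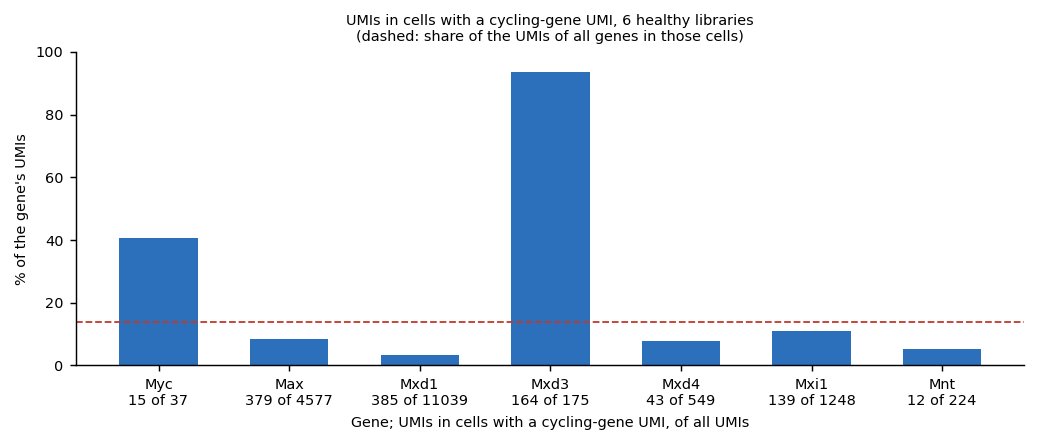
Share of each gene's UMIs (vertical axis, %) that lay in kept cells with a UMI of a cycling gene, summed over the 6 healthy libraries, with the UMIs under each bar. The dashed line is the share of all genes' UMIs in those cells, 14.0%, and the bar of Mxd3 reached 93.7%.

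The tissues were compared by edgeR's quasi-likelihood test on counts summed per library, with a term for the run, and a gene was called where its adjusted p was below 0.05. Fold changes of this fit are relative to the typical gene. On the CPM scale the median gene was higher in blood than in marrow by 0.34 and 0.30 (log2, runs 1 and 2), so that log2 CPM differences exceed the fitted ones by about that much. The same shift was -0.04 and 0.45 for spleen over marrow.

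Between blood and bone marrow 3 of the 7 members were called, beside 22.6% of the 7809 genes tested. Mnt was higher in blood by 1.54 ± 0.37 (log2 ± SE, edgeR adjusted p = 0.0249), and Mxd1 was higher by 0.71 ± 0.20 (adjusted p = 0.0429). Mxd3 was lower in blood, with a fitted log2 change of -4.84 ± 0.71 (adjusted p = 0.00538) that rests on 2 UMIs in blood, for which the marrow to blood ratio above is the better guide to size. Max was at -0.65 ± 0.23 (adjusted p = 0.0891), Mxi1 at 0.32 ± 0.25 and Mxd4 at 0.14 ± 0.28, and Myc at -2.65 ± 2.63 was not measurable at this depth. Marker lists of other and earlier cells also differed between these libraries, and their part in the calls was not tested. The 8 early granulocyte and cycling genes summed to 879 and 421 CPM in marrow and 33.8 and 25.6 CPM in blood (runs 1 and 2), lower in blood as Mxd3 was, with Elane and Ctsg at 0 in both blood libraries. The 11 monocyte genes summed to 1391 and 1020 CPM in marrow and 640 and 269 CPM in blood. The 6 erythroid genes summed to 912 and 304 CPM in marrow and 704 and 30348 CPM in blood, so that blood was the higher in run 2 alone. With granule and haemoglobin genes left out of the totals, Mxd1 was at 0.66 with adjusted p = 0.0514, over the threshold, and Mnt and Mxd3 were called as before.

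Mxd1 lost its call between blood and marrow without each of the 4 libraries, Mnt without 3 of them and Mxd3 without either blood library. Where a library is left out its tissue has 1 sample, which is assumed to vary like the other tissues. Without blood of run 1 the log2 changes were 0.72 for Mxd1, 1.28 for Mnt and -4.11 for Mxd3, and without blood of run 2 they were 0.69, 1.86 and -8.75, and none was called either time. Mxd1 alone lost its call without marrow of run 1 (0.76), and Mxd1 and Mnt lost theirs without marrow of run 2 (0.65 and 1.33). Max was called without spleen of run 1 (-0.62) and without spleen of run 2 (-0.67). With limits on mitochondrial UMIs and genes per cell, Mxd1 (0.47, adjusted p = 0.149) and Mxd3 (-3.91, adjusted p = 0.0602) lost their calls and Max was called (-0.83, adjusted p = 0.0375). DESeq2 did not call Mnt (adjusted p = 0.137), and with no filter on low counts edgeR did not call Mxd1 (adjusted p = 0.0556). Without the replicate block edgeR called 1 member, beside 215 of 7809 genes. Leaving out cells with 2 or more UMIs of the B-cell, T-cell, NK-cell or monocyte lists took away 62.7% and 76.3% of the marrow cells, which were the deeper ones with a median of 2638 to 3131 UMIs, and 9.20% to 43.4% of cells elsewhere. In the cells left, Mxd1 was at 0.08 (adjusted p = 0.769), Mnt at 1.05 (adjusted p = 0.0572) and Max at -1.11 (adjusted p = 0.000338). Max was the 1 member called there, beside 1254 of 5579 genes, so that the calls of Mxd1, Mnt and Mxd3 were all lost.

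None of the 7 was called between spleen and bone marrow by edgeR (adjusted p from 0.240 to 0.947), beside 2.95% of genes. Mnt at 1.01 ± 0.38 was the 1 member at an unadjusted p below 0.05 in that fit. DESeq2 called none as well, and gave no adjusted p for Mxd3 and Myc. Without spleen of run 1, the library with many granule-gene cells, Mnt was at 1.51 and Max at -0.75, both with an adjusted p below 0.05 in a fit in which spleen was 1 sample. Between spleen and blood none was called either, beside 0.0512% of genes, 4 of 7809. Mxd3 was higher in spleen at 3.97 ± 0.78 with an unadjusted p of 0.00126 and an adjusted p of 0.210 by edgeR, it was the 1 member at an unadjusted p below 0.05, and DESeq2 called none. Its adjusted p fell below the threshold without marrow of run 1 or run 2 (4.01 and 3.96) or spleen of run 2 (4.25), again with 1 sample in that tissue.

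Neutrophils lose specific-granule transcripts as they mature, so the share of Camp and Ngp among a cell's UMIs was used to split the kept cells into those with 3% or more, 0.5 to 3%, and under 0.5%. Marrow had 682 and 1330 cells in the upper range, 258 and 892 in the middle and 266 and 1204 in the lower. Blood had 132 and 27, 40 and 25, and 1134 and 3620. Spleen had 477 and 62, 113 and 17, and 545 and 1931. The 17 cells were too few for a sum and were left out of the fit and of the plot.

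Mxd1 was higher in the lower range than in the upper range in all 6 libraries. In marrow it went from 168 to 434 CPM in run 1 and from 279 to 709 CPM in run 2. In blood it went from 222 to 539 and from 364 to 908 CPM, and in spleen from 205 to 476 and from 309 to 950 CPM. The middle range lay between them in 5 of the 5 libraries with enough cells. In the fit over all tissues, with the library as a block, Mxd1 was higher by 0.90 ± 0.14 (edgeR adjusted p = 3.16e-06), and the call held without each of the 6 libraries (0.81 to 1.11). Without cells that held a cycling-gene UMI it was 0.62.

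Of the 4 members that passed the filter on low counts, Mxd1 and Mxd4 were called, beside 55.3% of the 4163 genes tested, so that most genes differ between these ranges. Mxd4 was lower in the lower range by the fit, -0.60 ± 0.23 (adjusted p = 0.0287), although its CPM was lower in 3 of the 6 libraries: marrow gave 26.5 and 23.5, then 23.0 and 12.3 CPM (upper and lower range, runs 1 and 2), blood 44.3 and 47.6, then 29.5 and 20.1, and spleen 27.2 and 30.7, then 16.3 and 29.8. The median gene was 0.11 to 0.86 higher (log2) in the lower range on the CPM scale, and the fitted value is relative to it. That call was lost without blood of run 1 (-0.47), blood of run 2 (-0.55), spleen of run 1 (-0.54) or marrow of run 2 (-0.44). Mxi1 was at 0.38 ± 0.19 (adjusted p = 0.0891), and was called without blood of run 1 (0.53).

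Mnt, Mxd3 and Myc did not pass the filter. Mnt in marrow was at 5.05 and 3.18 CPM in the upper range and 9.81 and 7.47 CPM in the lower. In blood it went from 2 and 0 UMIs to 29 and 62 UMIs (30.0 and 18.6 CPM), and in spleen from 3.08 and 8.13 to 25.3 and 20.9 CPM, with 2 UMIs in the upper range of run 2. The 0 in the upper range of blood of run 2 allows up to 29.5 CPM, so that no difference was detectable there. Mxd3 lay in the upper range, with 52 and 83 of its marrow UMIs, 19 and 11 of its spleen UMIs and 2 of its 2 blood UMIs there. With no filter on low counts edgeR called all 3: Mnt at 1.37 ± 0.37 (adjusted p = 0.00161), Mxd3 at -4.46 ± 0.54 (adjusted p = 3.79e-15) and Myc at 1.97 ± 0.67 (adjusted p = 0.0148), the last on 0 to 6 UMIs per library in the upper range and 0 to 9 in the lower.

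The course of Max over the ranges in marrow differed from that in blood and in spleen. In marrow it was at 173 and 172 CPM in the upper range, 368 and 294 CPM in the middle and 316 and 281 CPM in the lower. In blood it was at 196 and 226, 272 and 261, and 173 and 156 CPM. In spleen it was at 179 and 142 CPM in the upper and 224 and 167 CPM in the lower range, with 275 CPM in the middle of run 1. The middle range was the highest in all 5 libraries with enough cells. Over all tissues the fitted change from upper to lower was -0.16 ± 0.17 (adjusted p = 0.463). The change was 1.54 lower in blood than in marrow (interaction, edgeR adjusted p = 0.000257, beside 2.79% of genes called) and 0.87 lower in spleen than in marrow (adjusted p = 0.0339, beside 4.27%), and spleen against blood was not tested. For Mxd1, Mxd4 and Mxi1 the same interactions had adjusted p from 0.434 to 0.995.

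**Figure D3:**
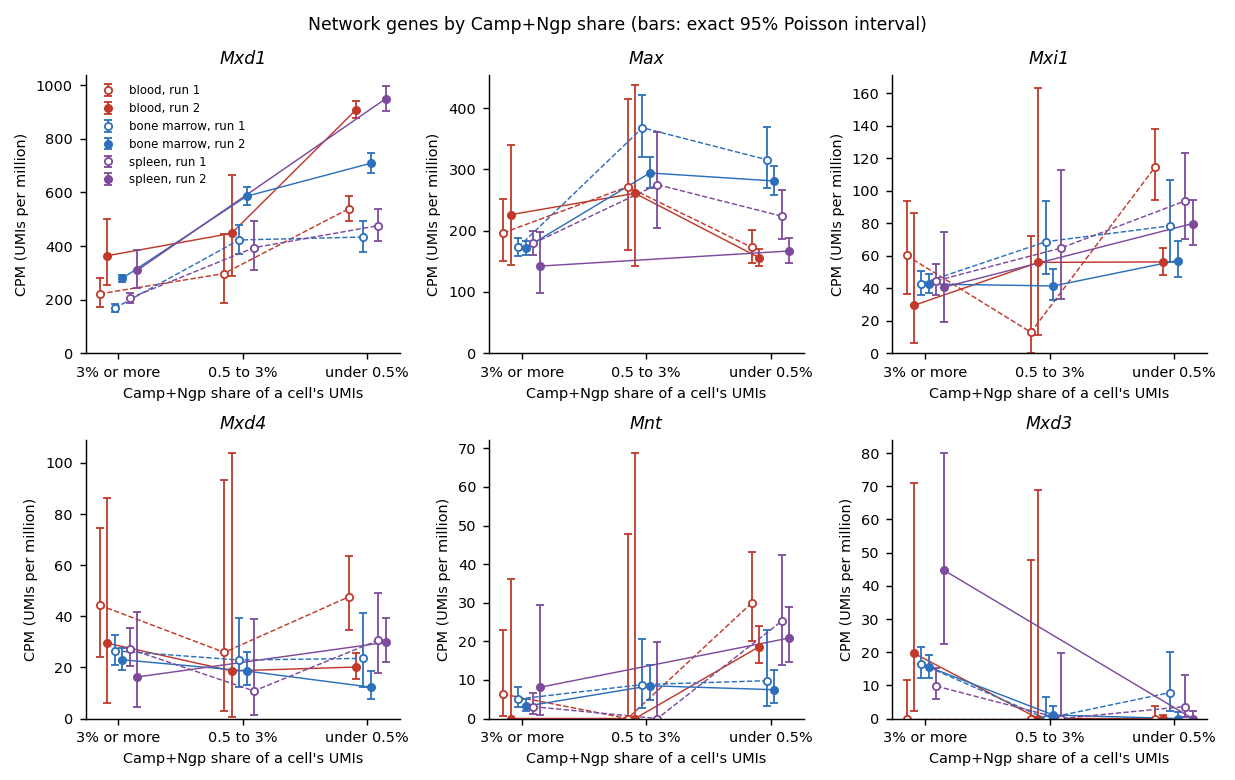
CPM (vertical axis, from 0) of 6 members in kept cells by the Camp+Ngp share of their UMIs (horizontal axis), for each library (open points run 1, filled points run 2; bars, exact 95% Poisson intervals). Mxd1 rose in all 6 libraries, whereas Max in marrow went from 173 and 172 CPM to 316 and 281 CPM and in blood from 196 and 226 CPM to 173 and 156 CPM.

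Within the lower range, the fitted difference of Mxd1 between blood and marrow was close to 0. The log2 change was 0.02 ± 0.20 (adjusted p = 0.963), compared with 0.71 over all kept cells, and in spleen over marrow it was -0.04 ± 0.20 compared with 0.45. On the CPM scale Mxd1 in this range was 539 and 908 in blood, 434 and 709 in marrow and 476 and 950 in spleen, with the median gene 0.28 and 0.38 higher in blood than in marrow. Whether the changes over all cells and within the range differ was not tested.

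Max was the 1 member called there, of 5 tested and beside 10.2% of 6064 genes. It was lower in blood than in marrow, at -1.18 ± 0.21 (log2, adjusted p = 0.00170), and lower in spleen than in marrow at -0.96 ± 0.21 (adjusted p = 0.00916, beside 8.72% of genes). Both blood libraries (173 and 156 CPM) and both spleen libraries (224 and 167 CPM) lay below both marrow libraries (316 and 281 CPM). The call in blood was lost without blood of run 1 (-1.03), and the one in spleen without marrow of run 2 (-0.81) or spleen of run 2 (-0.68). With limits of 0.25% and 6% for the ranges the one in spleen was also lost (-0.92, adjusted p = 0.0984). Without the replicate block both calls were lost. Mnt was at 1.09 ± 0.40 (adjusted p = 0.111) in blood and 1.06 ± 0.42 (adjusted p = 0.159) in spleen, and Mxd4 at 0.54 ± 0.36 and 0.59 ± 0.37.

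**Figure D4:**
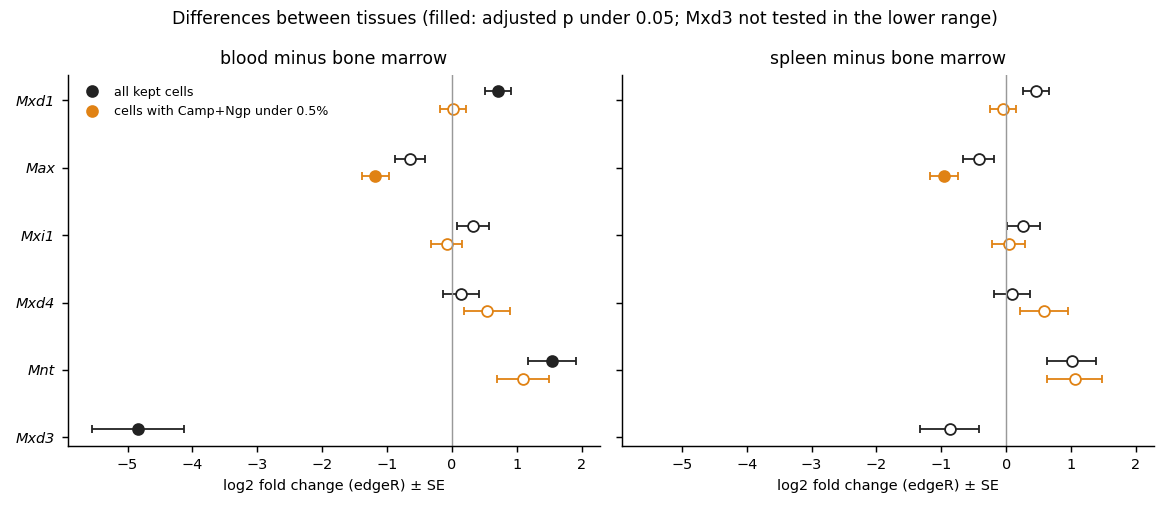
Fitted log2 fold changes (horizontal axis) of 6 members with 1 SE, for blood and for spleen against bone marrow, over all kept cells (black) and in cells with Camp+Ngp under 0.5% (orange). Filled points have an adjusted p below 0.05. Mxd1 lay at 0.71 over all cells and at 0.02 in the lower range of blood, and Max at -0.65 and -1.18.

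In the inflammation library the cells that the authors' table assigned to a granulocyte class were taken, 509 of healthy blood, 814 of arthritic blood, 2857 of arthritic joint, 380 of IL-1β lung and 292 of IL-1β peritoneum. In each condition 99.7% to 100% of them had Camp and Ngp under 0.5%, and their sums were between 942688 and 10293966 UMIs. The 5 conditions shared 1 library and its free RNA, and the 4 inflamed ones were set against the same healthy blood. Ratios were taken for genes with 20 UMIs or more over both conditions. The median gene was at a log2 ratio of -0.40 in arthritic blood, -0.49 in joint, -0.98 in lung and -1.05 in peritoneum.

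Mxd1 was higher than in healthy blood in every inflamed condition. It stood at 1228 CPM in healthy blood, 1452 in arthritic blood, 2368 in joint, 2056 in lung and 2557 in peritoneum. The ratios were 1.18 (exact 95% interval 1.11 to 1.26), 1.93 (1.83 to 2.04), 1.67 (1.57 to 1.79) and 2.08 (1.95 to 2.23). No interval held 1, and the lavage cells lay above both bloods. Mxd1 was 75.1% of the network's UMIs in healthy blood, 86.9% in joint, 93.1% in lung and 95.7% in peritoneum.

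Mxd4, Mxi1 and Mnt were all lower than in healthy blood after IL-1β. Mxd4 was at 71.1 CPM in healthy blood, 49.0 in arthritic blood, 12.0 in joint, 8.33 in lung and 11.7 in peritoneum. Its ratio was 0.169 (0.127 to 0.227) in joint, 0.117 (0.0562 to 0.221) in lung and 0.164 (0.0788 to 0.310) in peritoneum. The intervals of the 3 lavage sites overlapped. The 8 B-cell markers moved the same way, with sums of 209.8, 125, 51.5, 22.7 and 28.6 CPM in that order of conditions, although Cd79a, Cd79b and Ms4a1 were at 0 in healthy blood. In cells of healthy tissues below the limit of 3% and with 3 or more B-cell marker UMIs, Mxd4 was between 18.0 and 217 CPM, on 1 to 180 UMIs per library, against 19.9 to 45.6 CPM in kept cells. With cells that held a B-cell marker UMI left out (29.5% of healthy blood cells and 6.32% to 27.1% elsewhere), an alternative chosen after seeing the data, Mxd4 was at 68.1, 49.0, 11.1, 6.56 and 13.05 CPM, and its ratios were 0.163 (0.114 to 0.234) in joint, 0.0963 (0.0394 to 0.205) in lung and 0.192 (0.0898 to 0.373) in peritoneum.

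Mxi1 and Mnt, by contrast, differed between the joint and the IL-1β sites. Mxi1 was at 166 CPM in healthy blood, 119 in arthritic blood and 133 in joint, but 33.3 in lung and 29.7 in peritoneum, with ratios of 0.802 (0.688 to 0.940) in joint, 0.200 (0.141 to 0.280) in lung and 0.179 (0.116 to 0.267) in peritoneum. Mnt was at 52.5 CPM in healthy blood, 37.1 in arthritic blood and 56.8 in joint, but 9.84 in lung and 9.55 in peritoneum on 13 and 9 UMIs. Its ratios were 1.08 (0.828 to 1.44) in joint, 0.188 (0.0944 to 0.346) in lung and 0.182 (0.0793 to 0.369) in peritoneum. For both genes the joint interval lay apart from those of lung and peritoneum. The joint and IL-1β samples differ in stimulus, site and time after it, which cannot be told apart.

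Max had a higher CPM in arthritic blood and joint and a lower CPM in peritoneum than in healthy blood. It was at 117 CPM in healthy blood, 193 in arthritic blood, 155 in joint, 99.9 in lung and 61.5 in peritoneum, with ratios of 1.65 (1.36 to 2.01), 1.32 (1.11 to 1.59), 0.851 (0.664 to 1.09) and 0.524 (0.378 to 0.719). Lung was within counting error of healthy blood. On the log2 scale the peritoneum ratio was -0.93, close to the median gene at -1.05, so that Max was not low there relative to the typical gene. Myc had 0 UMIs in healthy blood, arthritic blood and lung, 2 in joint and 1 in peritoneum, and Mxd3 had 0, 0, 3, 0 and 1 in the order healthy blood, arthritic blood, joint, lung and peritoneum. The 0 counts in healthy blood allow up to 2.67 CPM, so that no ratio was formed.

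**Figure D5:**
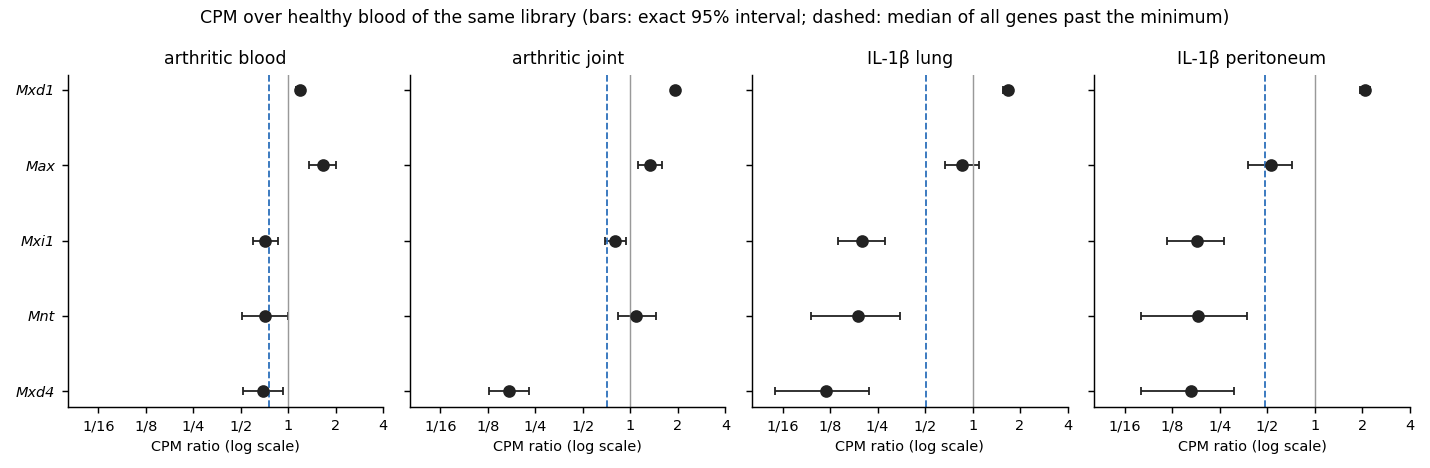
CPM ratio over healthy blood of the same library (horizontal axis, log scale) of the 5 members with enough UMIs, with exact 95% intervals, in 4 inflamed conditions. Dashed lines mark the median of all genes, and Mxd1 lay right of them throughout while Mxd4 was at 0.117 in IL-1β lung.

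By the count of members past 2-fold in either direction, 0 of 5 with enough UMIs were past it in arthritic blood (12.5% of all genes), 1 of 5 in joint (37.7%), 3 of 5 in lung (60.2%) and 4 of 5 in peritoneum (62% of all genes). In lung and peritoneum, therefore, most genes passed 2-fold, mainly downwards, and the counts are near that background. With cells that held a B-cell marker UMI left out the counts were the same, but in peritoneum Max was past 2-fold (0.432) and Mxd1 was not (1.98). Healthy blood and arthritic blood cells were mostly of the class GN.Bl in the authors' table and most joint cells of GN.Arth.SynF. Within GN.Bl the Mxd4 level was 67.9 CPM in healthy blood, 48.3 in arthritic blood and 18.5 in joint, and Mxd1 was 1099, 1420 and 1948 CPM. Within GN.UrAc.PC, which held 149, 131 and 96 cells of the same conditions, Mxd1 was 2532, 2755 and 2769 CPM with overlapping intervals (2227 to 2867, 2422 to 3120 and 2563 to 2986), and Mxd4 was 102, 100.4 and 28.8 CPM on 10, 9 and 7 UMIs. Within GN.Arth.SynF, Mxi1 was 129 CPM in joint, 30.0 in lung and 32.0 in peritoneum, and Mnt was 58.1, 7.05 and 7.38 CPM. The Mnt values of lung and peritoneum rest on 8 and 3 UMIs, the latter at the limit of detection.

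Other genes of the pathway were followed as 4 lists. The partner list (Mycn, Mycl, Mga, Mlx, Mlxip and Mlxipl) holds other proteins that bind Max or its relative Mlx. Of its 6 genes 3 were tested between blood and marrow, beside 22.6% of all genes called, and Mga, a Max partner in a Polycomb complex, was 2.82-fold higher in blood (log2 SE 0.39, adjusted p = 0.0328), and the list's median was 0.76 against -0.02 for all genes. Between the ranges 2 were tested, beside 55.3% of all genes called, and Mlx was lower at -0.89 ± 0.22 (adjusted p = 0.00124). In arthritic blood 1 of 3 and in joint 1 of 3 were past 2-fold lower, beside 11.3% and 25.9% of all genes. After IL-1β 2 of 3 in lung and 3 of 3 in peritoneum were past 2-fold lower, beside 49.3% and 51.8% of all genes. Mlx was at a ratio of 0.266 (0.117 to 0.555) in lung and 0.0746 (0.00866 to 0.292) in peritoneum, the latter on 2 UMIs.

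The corepressor list held 10 genes of the Sin3 and NCoR complexes. Between blood and marrow 10 were tested, 0 were higher and 2 were lower, beside 22.6% of all genes called: Hdac2, a histone deacetylase, at -1.87 ± 0.36 and Rbbp7, a histone chaperone, at -1.73 ± 0.31 (adjusted p = 0.0122 and 0.0101). The list's median was 0.33 against -0.02. From the upper to the lower range, of 8 tested and beside 55.3% of all genes called, 3 were higher, with Suds3, a Sin3 subunit, at 0.76 ± 0.16 the furthest, and 3 were lower (Rbbp7 at -1.12 ± 0.38, Hdac1 at -0.64 ± 0.22 and Rbbp4 at -0.62 ± 0.23), so that the list's median was -0.04 against 0.00 for all genes. The joint had 3 of 10 under 0.5 times healthy blood and arthritic blood 1 of 10, beside 25.9% and 11.3% of all genes. In lung 6 of 8 and in peritoneum 5 of 8 were under 0.5 times healthy blood, beside 49.3% and 51.8% of all genes, with the largest change in Sap30, a Sin3 subunit, at 0.0801 (0.0335 to 0.165) and 0.140 (0.0650 to 0.271).

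The turnover list held 8 genes of Myc stability and activity, of which Cip2a was in no file. Between blood and marrow 5 of its genes were tested, with a median of 0.45 against -0.02 for all genes, and between the ranges 2, and edgeR called none of them, beside 22.6% and 55.3% of all genes, with 1, Fbxw7 between blood and marrow, at an unadjusted p below 0.05. In arthritic blood 0 of 4 were past 2-fold, beside 12.5% of all genes, and in joint 1 of 6 was higher, beside 11.8%. In lung and peritoneum 3 of 4 were past 2-fold lower, beside the same 49.3% and 51.8% of all genes, among them Fbxw7, the ubiquitin ligase subunit that marks Myc for degradation, at 0.352 (0.195 to 0.612) and 0.311 (0.150 to 0.597).

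The target list held 30 genes of Myc in ribosome assembly, nucleotide synthesis and the cell cycle. Of 20 tested between blood and marrow, 3 were lower and 1 was higher, beside 22.6% of all genes called, with a median of -0.84 against -0.02 for all genes. Ran, a nuclear transport GTPase, was at -1.85 ± 0.22 (adjusted p = 0.00296), Eif2s1, a translation initiation factor, at -1.82 ± 0.33 and Cdk4, a G1 kinase, at -3.00 ± 0.83. Ccnd2, a G1 cyclin, was higher in blood at 2.89 ± 0.56 (adjusted p = 0.0124) and again within the lower range at 1.59 ± 0.31 (adjusted p = 0.00319). From the upper to the lower range 7 were tested, beside 55.3% of all genes called. Eif4e at -1.50 ± 0.28, Ran at -1.47 ± 0.37 and Ldha at -0.70 ± 0.14 were lower, and Ccnd2 at 2.94 ± 0.32 was higher. Over all kept cells, spleen against marrow and against blood gave no call by edgeR in any of the 4 lists, with 1 corepressor and 4 targets at an unadjusted p below 0.05 against marrow and 2 and 4 against blood. In the lower range Ccnd2 was higher in spleen than in marrow at 1.65 ± 0.31 (adjusted p = 0.00344). In joint 4 of the 21 targets with enough UMIs were past 2-fold higher and 5 lower, beside 11.8% and 25.9% of all genes. Nme1, a nucleotide kinase, had a ratio of 3.89 (1.86 to 9.77), Dkc1, of ribosomal RNA modification, 0.252 (0.128 to 0.527), and Nop58, a nucleolar protein, 3.61 (0.604 to 146.7) on 33 and 1 UMIs. Cdk4 had 63 UMIs in joint (6.12 CPM) and 0 in healthy blood, which allows up to 2.67 CPM. Arthritic blood had 0 higher and 5 lower of 12, beside 1.21% and 11.3% of all genes. Lung had 2 higher and 5 lower of 10, with Nop58 the furthest at 17.0 (2.72 to 706) on 20 and 1 UMIs, beside 10.9% and 49.3%, and peritoneum 0 higher and 4 lower of 8, beside 10.2% and 51.8%.

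Likeness to Mxd1 was measured over the 6 healthy libraries and 5 conditions as the Pearson correlation of log2(CPM + 10), after centring within each run and the inflammation library, among 2046 genes with a mean of 50 CPM or more. The 4 genes most like it were Fosl2 (r = 0.988), a subunit of the AP-1 transcription factor, Il10rb (0.975), a chain of the interleukin 10 receptor, Golph3 (0.970), a Golgi protein, and Tnfrsf1b (0.968), a receptor of tumour necrosis factor. The 11 profiles share libraries, runs and the inflammation kit, so the values describe these samples only. Myc at a mean of 1.08 CPM was too low for this measure.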

How the data were processed

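UMI counts per gene and cell were deposited by the authors, who ran Cell Ranger on mm10, with different releases for the runs; the tables hold cells from before the authors' own cell filters, and the inflammation table holds hashtag singlets. Counts were used as deposited. No column of an unmatched sample was found (0 columns). Kept cells were those with S100a8 and S100a9 at 3% of UMIs or more. No doublet caller was run and free RNA was not corrected. Counts were summed per library, or per library and range with at least 20 cells, and fitted by edgeR 4.0.16 in R 4.3.3 (quasi-likelihood, robust, TMM factors, filterByExpr) with the run, or for ranges the library, as a block, and p-values were adjusted by Benjamini-Hochberg over all genes tested. The pool of mice is the replicate. The 2 pools of a tissue are of different mice and also differ in run and age, and p-values measure only the spread between these samples. The run numbers pair the tissues because, by the study's methods, each run took all 3 tissues from 1 set of mice. Deviations of same-numbered libraries correlated with Pearson's r from 0.550 to 0.631 over 7809 genes. DESeq2 1.42.0 served as an alternative. Sums and intervals were computed with Python 3.11.15, NumPy 2.4.6, SciPy 1.17.1 and pandas 2.3.3, and plots with matplotlib 3.10.9. Intervals of CPM are exact Poisson and those of ratios exact conditional binomial, at 95%. They and the limit of 3 counts behind a 0 cover counting error only. In the inflammation library, genes were past 2-fold at a ratio of 2 or more or 0.5 or less.

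The members and lists were chosen with earlier results of these data known. All 7 members are named in each comparison, and genes of a list were taken from the up to 4 with the largest change among those past the threshold. Cip2a was in no table and is not analysed here. Alternatives changed the block, the scaling, the test, the filter on low counts, the limits on cells (among them mitochondrial UMIs of 5% or less with genes per cell in the 1st to 99th percentile), the limits of the ranges, the library totals, the minimum of UMIs and the libraries. Leaving granule and haemoglobin genes out of the totals in the tissue fits, leaving cells with a B-cell marker UMI out of the inflammation ratios and splitting cells by 1 or more cycling-gene UMIs were chosen after seeing the data. The fits were tested on simulated data.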

Additional observations from a re-analysis of the deposited data

Results flagged for a closer look

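The change of Max from the upper to the lower Camp+Ngp range differed between tissues by the test of the interaction. It was -1.54 (log2) in blood relative to marrow and -0.87 in spleen relative to marrow. Blood of run 2 had 27 cells in the upper range and spleen of run 2 had 62, so that these sums rest on 23 and 35 Max UMIs.

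Cells below the limit of 3% for S100a8 and S100a9, which the comparisons of healthy tissues above did not use, held more Myc per UMI than the kept cells in marrow and spleen. Myc was at 73.9 CPM (34 UMIs) in 65 such cells of marrow in run 1 and at 52.9 CPM (53 UMIs) in 397 cells in run 2. In spleen it was at 74.0 CPM (14 UMIs) in 84 cells and 34.7 CPM (144 UMIs) in 2343 cells. The 282 and 981 such cells of blood held 0 Myc UMIs, which allows up to 4.93 and 1.22 CPM. Cells with marker UMIs of other or earlier cells held a part of the Myc UMIs in marrow and spleen. The 81 cells of blood of run 2 with 3 or more B-cell marker UMIs held 0. In marrow of run 1, cells with 10 or more UMIs of the early granulocyte and cycling list held 30 of the 34 Myc UMIs. In marrow of run 2 such cells held 11 of 53. Cells with 3 or more B-cell marker UMIs held 4 and 16 in these runs. In spleen of run 1, cells with 3 or more T-cell marker UMIs held 9 of the 14 and those with 3 or more B-cell marker UMIs 1. In spleen of run 2, cells with 3 or more B-cell marker UMIs held 92 Myc UMIs and those with 3 or more T-cell marker UMIs 63. These classes share cells, so that their counts cannot be added. Per UMI, Myc was at 33.7 CPM in the B-cell class and 43.6 CPM in the T-cell class. Over all 2343 cells under the limit there it was at 34.7 CPM. The part of these cells in the Myc of kept cells was not tested.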

How the results depend on the processing

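Of the 7 members, 3 were called between blood and marrow, and 1 without the replicate block. Without cells holding other cells' markers 1 was called, Max, which was not among the 3. With a library left out, calls between tissues were lost or gained as given above. Between spleen and marrow the 0 became 1 without cells holding other cells' markers. All genes called there went from 230 of 7809 to 882 of 5579. Between spleen and blood the count stayed at 0 with all libraries in the fit. Between the ranges the 2 became 5 with no filter, while all genes called went from 2301 of 4163 to 3679 of 13709. That count ranged from 1 to 4 members with a library left out. In the lower range the 1 became 0 without the replicate block, with Max at -1.18 and adjusted p = 0.0691, and ranged from 0 to 1. For spleen minus marrow in that range, the 1 member called, Max, also became 0 without the block. The block changed no other count of members. Over all genes, 1766 were called between blood and marrow with the block, 215 without it, 51 without blood of run 1 and 0 without blood of run 2. In joint the 1 member past 2-fold became 2, as Mxd1 passed it, in cells with S100a8 and S100a9 at 3% or more (2.05) and also with the 10 most abundant genes left out of totals.

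Uncalled values that changed sign were, between blood and marrow, Mxd4 at -0.020 with limits on mitochondrial UMIs and genes and Mxi1 at -0.11 without cells holding other cells' markers. Between spleen and marrow they were Myc at 0.10 without the block, and Mxd3 at 0.13 and Mxd4 at -0.037 with limits on mitochondrial UMIs and genes. Between spleen and blood they were Mxd4 at 0.078 with S100a8 and S100a9 at 1% or more and Mxi1 at 0.12 without cells holding other cells' markers. In the lower range they were Mxd1 at -0.16 (blood) and Mxi1 at -0.0039 (spleen) without cycling cells, and Mxd1 at 0.085 (spleen) with limits of 0.25% and 6%. With a library left out, blood minus marrow ran from -0.19 to 0.48 for Mxd4. Spleen minus marrow ran from -0.17 to 0.35 for Mxd4 and -3.02 to 1.96 for Myc. Spleen minus blood ran from -0.13 to 0.54 for Max, -0.40 to 0.27 for Mxd4, -0.37 to 0.22 for Mxi1 and -0.57 to 5.71 for Myc. Max between the ranges ran from -0.38 to 0.12. In the lower range, blood minus marrow ran from -0.010 to 0.062 for Mxd1 and -0.31 to 0.28 for Mxi1, and spleen minus marrow from -0.14 to 0.29 for Mxi1. The causes were not tested. Blood libraries of 1360064 and 3481227 UMIs limit what can be seen of Myc, Mxd3 and Mnt.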
